A study of Caenorhabditis elegans with 2 samples.

Results

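The gene ztf-29 of Caenorhabditis elegans and the 10 kb on either side of it were examined in the peak lists of the worm's own ZTF-29 protein. It is 1 of 19973 protein-coding genes in the annotation, and its window held 2 of the 814 listed peaks of the series. The window was set by coordinates, with the strong upstream peak already known from earlier results of these data, and every candidate with its summit inside it is accounted for. The assay was chromatin immunoprecipitation with sequencing, which recovers the DNA fragments that a protein is attached to. Both samples came from strain RW12283, whose allele st12283[ztf-29::TY1::EGFP::3xFLAG] III was made by inserting a tag at the gene with CRISPR. They were biological replicates 1 and 2 of whole organisms at the midembryonic stage, with an age of 0 hour and synchronization by egg bleaching. The immunoprecipitation used an antibody to GFP, although the antibody entry of the labels reads ztf-29, and the chromatin was sonicated to 200 to 800 bp. There was a single group and no other condition, so nothing was compared between conditions, and the possible control experiment that the labels name was not analysed here. Whole embryos mix all cell types, so that the number of cells bound and the binding per cell cannot be told apart.

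Genes named ztf encode zinc finger proteins, a class in which short folded units, each held by a zinc ion, can read DNA letters in the major groove. Many regulators of transcription bind near their own genes, and worm regulatory elements lie mostly in the DNA just upstream of a start or farther out in intergenic DNA and introns. Chromatin immunoprecipitation of a tagged regulator also often recovers small RNA genes and other highly transcribed places, which is why the RNA genes of the window are listed beside the peaks. Many worm messenger RNAs are trans-spliced, so that an annotated start can be a splice site and not the base where transcription begins.

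The letters of the places the results turn on are shown here on the forward strand of the reference genome, build ce11 (WBcel235), without the tag. The upstream peak is the conservative peak at chrIII:11558326-11558468. The promoter peak is the conservative peak at chrIII:11560555-11560830. In both, capitals mark the summit with 10 bases on either side.

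upstream peak: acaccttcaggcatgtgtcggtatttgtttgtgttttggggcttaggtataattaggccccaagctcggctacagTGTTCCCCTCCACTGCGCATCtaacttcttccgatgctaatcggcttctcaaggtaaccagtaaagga

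promoter peak: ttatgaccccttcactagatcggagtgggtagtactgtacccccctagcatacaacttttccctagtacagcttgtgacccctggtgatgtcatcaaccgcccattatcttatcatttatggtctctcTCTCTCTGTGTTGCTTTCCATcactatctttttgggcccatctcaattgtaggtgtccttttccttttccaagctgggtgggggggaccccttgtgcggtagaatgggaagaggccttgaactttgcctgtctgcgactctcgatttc

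The non-coding RNA gene Y66D12A.26, at chrIII:11558449-11558574 on the reverse strand, is the RNA gene beside the upstream summit and is shown in its own direction. Its capitals mark the 20 bases at its 3′ end that the upstream peak covers.

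Y66D12A.26: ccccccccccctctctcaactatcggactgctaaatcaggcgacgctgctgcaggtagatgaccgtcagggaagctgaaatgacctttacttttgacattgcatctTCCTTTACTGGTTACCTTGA

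The 60 bases before the annotated ztf-29 start, at chrIII:11561092-11561151, are shown because all distances are taken from that start. The capitals mark the last 2 bases, AG, the letters that close an intron.

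before the ztf-29 start: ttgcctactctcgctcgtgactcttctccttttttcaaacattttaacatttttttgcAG

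Of the 19973 coding genes, 5510 (27.6%) had AG there. Whether the ztf-29 start is a splice site was not tested.

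The gene (WBGene00013438) lies at 11561152 to 11562663 of chromosome III on the forward strand and is 1512 bp long. It has 2 exons, a coding length of 1029 bp without the stop codon, and 19 bp between its annotated start and its start codon at 11561171. The stretch upstream of it is long: the coding gene before it, Y66D12A.13, ends 8753 bp away. Of 17073 gaps between neighbouring coding genes, 870 (5.10%) were at least as long, and the median gap was 908 bp. Downstream, the gap to Y66D12A.11 was 803 bp.

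The window of 21512 bp touched 10 genes, 5 of them coding and 5 RNA genes. The coding ones were ztf-29, Y66D12A.13 upstream, and Y66D12A.11, Y66D12A.10 and psme-3 downstream, all on the forward strand. The product of psme-3 is a proteasome activator subunit. Among the RNA genes, the tRNA-Phe gene Y66D12A.t1 lay -6255 bp from the ztf-29 start, overlapped by Y66D12A.29 on the other strand. Y66D12A.28 followed at -6089 bp and Y66D12A.26 at -2578 bp. Y66D12A.27, at 3468 bp downstream, lay inside Y66D12A.11. The last 4 are annotated as ncRNA, a class with no stated function.

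**Figure D1:**
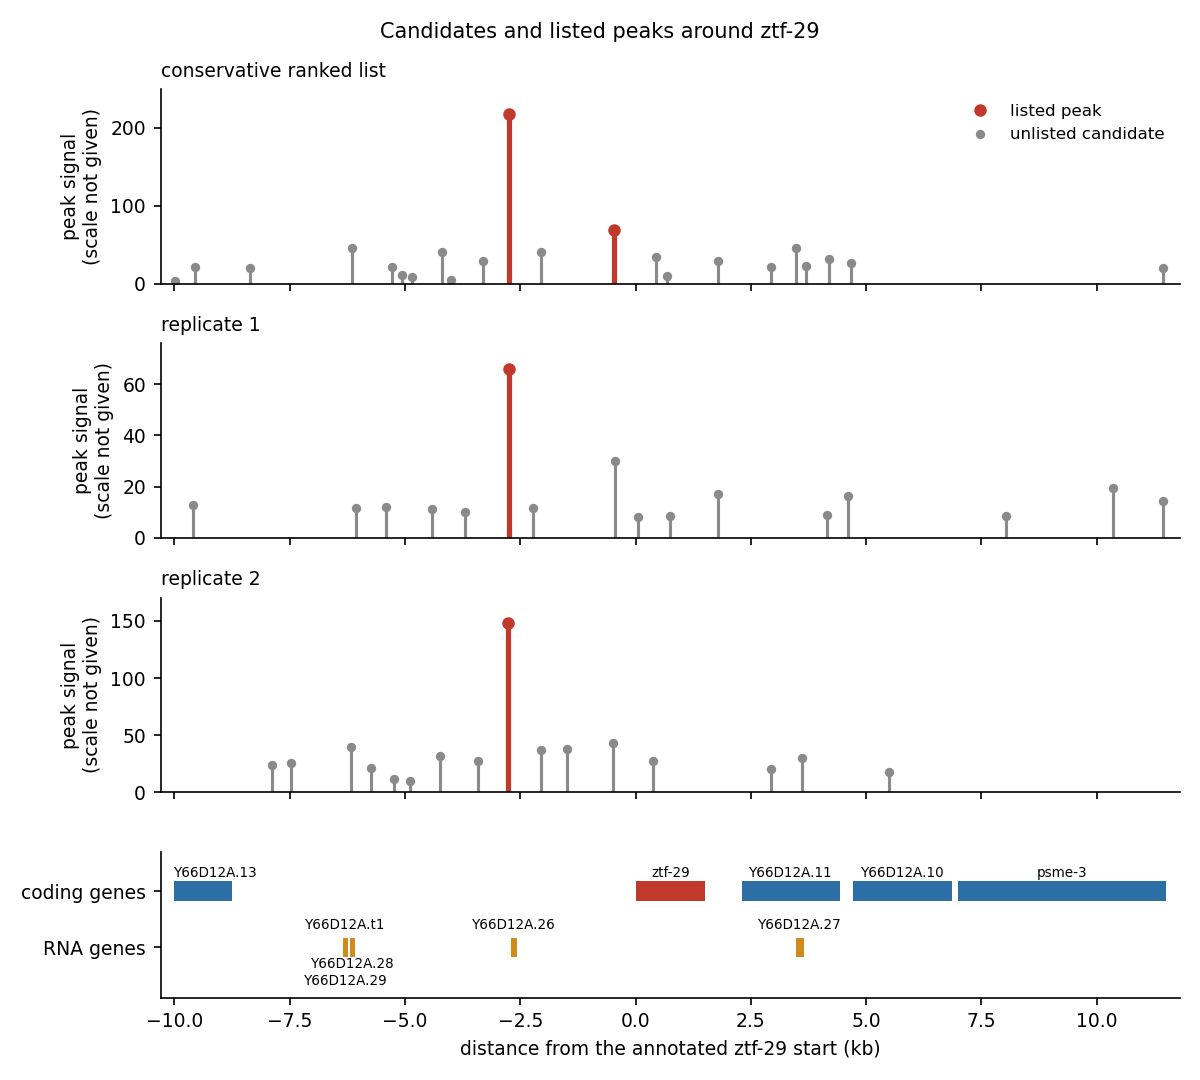
Candidates and listed peaks of the ztf-29 window. The first 3 panels plot each summit's distance from the annotated ztf-29 start in kb against its signal, on a scale that is not given, in the conservative, replicate 1 and replicate 2 lists, with listed peaks in red and other candidates in grey. The last panel shows the coding genes and RNA genes. The upstream peak stands above all others in every panel, and the promoter peak, at -459 bp in the conservative panel, is red in that panel and grey in both replicates.

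Each deposited list comes as all ranked candidates and as the shorter set the authors kept, called the listed peaks here. They are rated by the irreproducible discovery rate (IDR). It estimates what share of the peaks ranked as high or higher would not recur in another sample or pseudo-sample. No listed peak had an IDR above 0.01. Some candidates within that limit were not listed, none of them in the ztf-29 window. They numbered 126 in the conservative list, 136 in the full list, 107 in replicate 1 and 133 in replicate 2. What set them apart was not tested. In the ztf-29 window 2 of 22 conservative candidates (9.09%) were listed, against 814 of 54900 (1.48%) over the whole conservative list. In the full list 2 of 26 (7.69%) were listed, against 1114 of 54286 (2.05%). In replicate 1 the window had 1 listed peak among 16 candidates (6.25%), against 466 of 38705 (1.2%) over its whole list. In replicate 2 it again had 1 among 16 (6.25%), against 802 of 43139 (1.86%). These shares rest on 1 or 2 peaks, and the lists share reads, so they are not independent of each other. The window was taken with its strong upstream peak already known, so at least 1 listed peak there was given in advance. The higher shares in the window are therefore not read as a result.

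The stronger of the listed peaks lay far upstream, with its summit at 11558411, -2741 bp from the ztf-29 start. Its deposited signal was 217.5 in the conservative list, where the median listed peak had 101.7 and the strongest 619.3. That put it at rank 73 of 814 listed peaks, with 8.85% of them higher, and at rank 124 of 54900 candidates. Unlisted candidates were among those above it, and the strongest candidate, at 3069.7, exceeded every listed peak. Its IDR was 3.72e-05. The full list has the same interval, signal and rank of 73 by signal, there among 1114 listed peaks, and an IDR of 1e-05, the smallest value the deposited score allows.

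The upstream peak was listed in both replicates. In replicate 1 its signal was 66.0 at summit 11558407, rank 135 of 466 listed peaks, with an IDR of 0.000211. In replicate 2 its signal was 148.2 at summit 11558390, rank 52 of 802, with an IDR of 1e-05. It was the strongest candidate of the window in both. Signals of separate lists share no stated scale, so that the replicates are set side by side only by rank: 0.522% of the candidates of replicate 1 and 0.232% of those of replicate 2 had a higher signal (mean 0.377 ± 0.205%, SD, n = 2). Among listed peaks only, 28.8% were higher in replicate 1 and 6.36% in replicate 2.

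The replicates placed the upstream summit 17 bp apart. The median over 803 conservative peaks that overlapped a candidate of each replicate was 23 bp, with quartiles of 9.5 and 46.0 bp, and 328 of them had a smaller gap than the ztf-29 upstream peak. The peak is 143 bp wide, where 699 of the 814 conservative peaks have the fixed width of 276 bp, and 78 are narrower than it. The short form is common among strong peaks: 114 of all 814 (14.0%) and 88 of the 100 strongest were narrower than 276 bp.

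**Figure D2:**
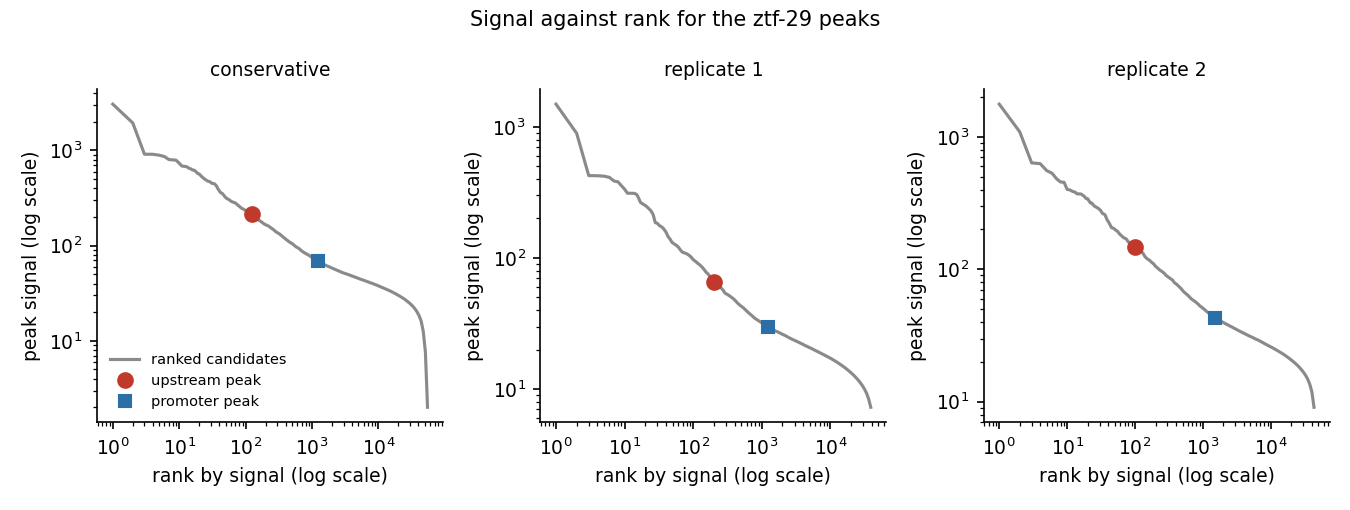
Signal against rank for the 2 ztf-29 peaks in the conservative, replicate 1 and replicate 2 ranked lists. Both axes are on log scales, and the grey line joins a subset of the candidates of that list in order of rank. The red circle is the upstream peak and the blue square the promoter peak. The upstream peak sits at ranks 124, 203 and 101, on the steep upper part of each line, and the promoter peak at ranks 1216, 1233 and 1522.

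By annotation the upstream summit is intergenic, as were 181 of the 814 conservative peaks (22.2%), among which it ranked 19. The nearest coding start is that of ztf-29 itself. That is a long distance for a listed peak: the nearest coding start was at least as far for 172 of 814, and the median distance was 926.5 bp. The nearest gene of any class is Y66D12A.26, whose 3′ end was 38 bp from the summit in the conservative and full lists, 42 bp in replicate 1 and 59 bp in replicate 2. In none of the lists did the summit fall inside that gene, and no other RNA gene lay within 1 kb of it.

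Some peaks lay beside ncRNA genes, and many of those had a better known small RNA gene nearby as well. The same share over all candidates was not computed, so these counts show no excess. Within 200 bp of the summit, 255 of 814 conservative peaks had an ncRNA gene. Of these, 111 had no tRNA, snoRNA or snRNA gene within that distance, and the ztf-29 upstream peak ranked 7 of the 111 by signal. It ranked 24 among the 564 conservative peaks with none of those 3 classes within 200 bp, whatever else was there. Of the 564, 235 also had no coding start within 1 kb, and it ranked 12 among them.

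The letters of the upstream peak were compared over 277 bp around the summit. G and C made up 50.5% of them, against a median of 44.6% over all 814 peaks (quartiles 40.4 and 48.7%), and 684 peaks had less. None of its bases was masked as repeat in the genome file, against a median of 22.2%. All 124 words of 20 bases in the peak occur at no other place of the nuclear chromosomes.

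Motifs were searched on both strands, and a match describes letters only. The unit of the worm telomere repeat, TTAGGC, occurs 1 time, starting at base 53 of the upstream peak as printed. It was present in 128 of the 814 conservative peaks (15.7%) over the same length. GTTCGANNC, the core of the internal box B of tRNA genes, was absent here and present in 177 peaks (21.7%), and TATAAA, the letters of a TATA box, was absent here and present in 150 (18.4%). None of the 3 overlaps another in the sequences shown.

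The other listed peak of the window lay in the promoter window of ztf-29, taken as 500 bp upstream to 100 bp downstream of the annotated start. Its conservative summit was at 11560693, -459 bp from the start, near the outer edge of that window. With a signal of 69.1 it held rank 754 of 814 listed peaks, with 92.5% higher, and rank 1216 of 54900 candidates. With only the strongest of overlapping listed peaks kept, 95.7% were higher. Its IDR was 0.00726, close to the limit of 0.01. In the full list it ranked 936 of 1114 with an IDR of 0.00584.

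Neither replicate listed the promoter peak. In replicate 1 the overlapping candidate had a signal of 29.9 at summit 11560698, -454 bp from the start, and an IDR of 0.104. In replicate 2 it had 43.2 at summit 11560651, -501 bp from the start, and an IDR of 0.0371. The replicate 2 summit falls 1 bp outside the promoter window. Both IDR values were above the limit, while the signals were the strongest unlisted ones of the window in each replicate. Of the candidates of replicate 1, 3.18% had a higher signal, and of those of replicate 2, 3.53% (mean 3.35 ± 0.242%, SD, n = 2).

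The replicates placed the promoter summit 47 bp apart, and 605 of 803 conservative peaks had a smaller gap. A candidate of the fixed width has its summit at its middle, so that this distance has the resolution of the candidate's placement. A missing call in both replicates was common at or below this signal. Of the 814 conservative peaks 200 were listed in neither replicate, as were 72 of the 273 in promoter windows (26.4%) and 39 of the 61 at or below the signal rank of the ztf-29 promoter peak. Of those 61, 11 had a signal below 10. Some of the 61 share their replicate candidates with a stronger conservative peak, as rank 814 does with rank 643. Their replicate calls can be those of the stronger peak, so the 39 of 61 mixes separate weak peaks with such repeats. By contrast, all 100 strongest conservative peaks were listed in both. Signal and IDR do not order the peaks alike: 343 of 53960 unlisted candidates over the limit had a higher conservative signal than the ztf-29 promoter peak, up to 174.4.

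Within its class the promoter peak of ztf-29 was also weak, at rank 254 of the 273 conservative peaks in promoter windows, which make up 33.5% of the list. Its 277 bp held 49.1% G and C, with 13.4% masked as repeat. The 257 words of 20 bases in it likewise occur at no other place of the nuclear chromosomes. TTAGGC, GTTCGANNC and TATAAA were all absent from it. They were absent, too, from the 250 bases before the ztf-29 start, where 5.38%, 1.17% and 35.2% of all coding genes had them. The longest word that both ztf-29 peaks share, on either strand, has 7 bases.

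The upstream peak exceeded the promoter peak in every list. Its signal was 217.5 against 69.1 in the conservative and full lists, 66.0 against 29.9 in replicate 1 and 148.2 against 43.2 in replicate 2. The median candidate had 25.9 in the conservative list, 13.5 in replicate 1 and 20.01 in replicate 2, so that both ztf-29 peaks were above it in each. The zero and the linearity of the signal are not stated, and no fold was taken from it. By rank among candidates the order was the same, with the upstream peak at 124, 203 and 101 and the promoter peak at 1216, 1233 and 1522 in the conservative, replicate 1 and replicate 2 lists. With 2 replicates no test was made.

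**Figure D3:**
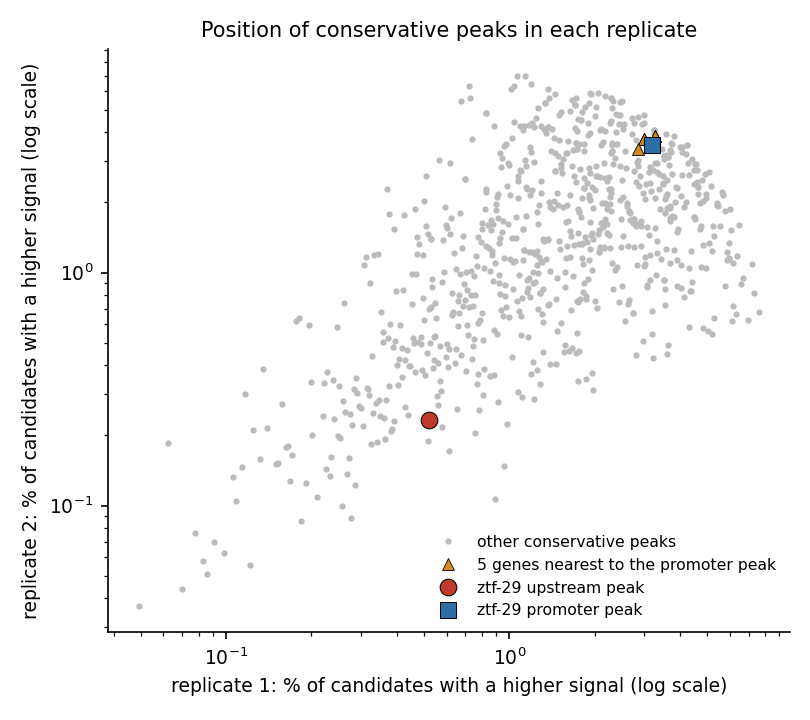
Position of each conservative peak in the replicates. The axes give the percent of candidates with a higher signal in replicate 1 and in replicate 2, on log scales, so that strong peaks are at the lower left; the red circle is the ztf-29 upstream peak, the blue square its promoter peak, the orange triangles the promoter peaks of the 5 genes closest to it and the grey points the other peaks. The upstream peak sits at 0.522% and 0.232% and the promoter peak at 3.18% and 3.53%.

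The pair of listed ztf-29 summits was 2282 bp apart, and 74 of 808 spacings between neighbouring conservative summits were as short. The conservative list holds some overlapping peaks, so part of these short spacings lie between overlapping calls of the same place. How many of the 74 do was not counted. The next listed summit to the left was at 11427781, -133 kb from the ztf-29 start, with a signal of 84.2 and rank 569, and 262 of 808 spacings were at least as long as that one. To the right it was at 11831374, 270 kb away, with a signal of 76.8 and rank 677, and 102 of 808 spacings were at least as long. The median of the 808 spacings was 69871.5 bp. Chromosome III held 142 of the 814 conservative peaks.

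No peak was listed within ztf-29 itself or downstream of it. The conservative list had 2 unlisted candidates inside the gene, both in coding exons. The one at 438 bp from the start had a signal of 34.6 and an IDR of 0.736, and the one at 682 bp had 9.25 and 0.760. Replicate 1 had 2 candidates in the gene, at 56 and 748 bp, with signals of 8.27 and 8.66, and replicate 2 had 1, at 374 bp in the intron, with 27.3 and an IDR of 0.399. Past the stop codon, a conservative candidate lay 680 bp farther on with a signal of 29.5 and an IDR of 0.702. Replicate 1 had one 694 bp past the stop codon, at 17.2 and an IDR of 0.870, and replicate 2 had none between the gene and Y66D12A.11.

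None of the remaining candidates of the window was listed. The 20 unlisted conservative ones, 11 of them upstream, 2 in the gene and 7 downstream, had signals of 2.85 to 45.7 with a median of 21.7, and IDR values of 0.202 to 0.876. The best of them ranked 4823 of 54900. The 24 unlisted ones of the full list had signals of 2.85 to 45.7 and IDR values of 0.141 to 0.874. The 15 of replicate 1 had 8.27 to 29.9 and the 15 of replicate 2 had 9.51 to 43.2. Both counts include the promoter candidate, which was the highest each time. In replicate 1 the next, in a coding exon of psme-3, had 19.3, with 16.9% of candidates higher, against 3.18% for the promoter candidate. In replicate 2 the next had 39.5, 37.9 and 36.6, with 4.72, 5.46 and 6.24% higher, against 3.53% for the promoter candidate.

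Between the 2 listed peaks the candidates differed by list. The conservative list had a candidate at -2053 bp, with a signal of 40.5 and an IDR of 0.722. Replicate 2 had candidates at -2060 and -1481 bp, with signals of 36.6 and 37.9. Replicate 1 had one at -2235 bp, with a signal of 11.6 and an IDR of 0.939. None of them came near the limit, so the gap between the 2 ztf-29 peaks held no further listed summit. Upstream of the strong peak, the conservative candidates at -3314 and -4202 bp had signals of 29.1 and 40.3 and IDR values of 0.764 and 0.714.

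Y66D12A.11, the next coding gene downstream, had the strongest unlisted conservative candidate on that side, in an intron at 3469 bp from the ztf-29 start and within the gene Y66D12A.27. Its signal was 45.4, with an IDR of 0.681 in the conservative list and 0.150 in the full list. Replicate 2 had a candidate at 3601 bp with a signal of 30.1 and an IDR of 0.815, while the nearest one of replicate 1 lay at 4158 bp with 8.79. Candidates in the promoter windows of the other neighbours were weaker in the joint lists, with a conservative signal of 26.0 at Y66D12A.10 and a signal of 18.5 at psme-3 in the full list. In replicate 1 the order was the reverse, with 16.3 in the promoter window of Y66D12A.10 against the 8.79 in Y66D12A.11.

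The tRNA-Phe gene of the window is shown because tRNA genes were a frequent place of listed peaks in the series. It lies at chrIII:11554825-11554897 on the forward strand, and its capitals mark the match to GTTCGANNC.

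Y66D12A.t1: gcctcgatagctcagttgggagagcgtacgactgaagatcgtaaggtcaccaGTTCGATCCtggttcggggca

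No list had a listed peak at Y66D12A.t1. Over the series, 204 of 612 tRNA genes (33.3%) had a conservative summit within 200 bp, and 4 of the 14 tRNA-Phe genes did. The nearest conservative candidate had its summit 109 bp from the gene, in Y66D12A.28, with a signal of 45.7 and an IDR of 0.727, and its IDR in the full list was 0.141. In replicate 1 the nearest was 181 bp away, at rank 25359 with a signal of 11.7 and an IDR of 0.939. In replicate 2 it was 91 bp away, at rank 2038 with a signal of 39.5 and an IDR of 0.146. The replicates therefore differed widely in rank at this tRNA gene, and the candidate was over the limit in both.

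Having 2 listed peaks nearby was infrequent among coding genes. With ztf-29, 488 of 19973 (2.44%, exact 95% interval 2.23 to 2.67%, counting error only) had at least 2 conservative summits within 10 kb. Most, 16821 genes, had none, 2664 had 1, 419 had 2, 53 had 3 and 16 had 4. Overlapping peaks of the list were counted here as separate summits, which raises the number of genes with 2 or more. Neighbouring genes share summits, and all 5 coding genes of the window had the same 2. The interval treats genes as independent, which they are not, and it holds no spread between replicates. A listed summit in the promoter window was found at 329 of 19973 coding genes (1.65%), ztf-29 among them. The window also held many candidates of any strength, 22 against a median of 12 per coding gene (quartiles 8 and 16), and 1321 genes (6.61%) had more.

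**Figure D4:**
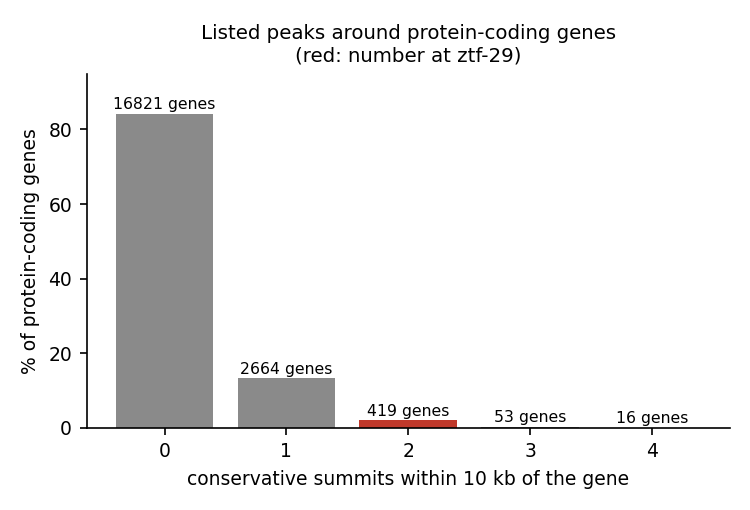
Conservative summits within 10 kb of each coding gene. The horizontal axis is the number of summits, the vertical axis the percent of the 19973 coding genes, the number above each bar counts the genes, and the red bar is the one that holds ztf-29. The bar with ztf-29 holds 419 genes, against 16821 genes with no summit.

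The genes most like ztf-29 were taken as those whose listed promoter peak stood at the most similar place in both replicates. Likeness was the larger of the 2 differences in the percent of candidates with a higher signal, over 326 genes outside the window and over 2 samples. The closest were dnj-29, for a DnaJ-domain protein, and ndua-2, for a subunit of respiratory complex I, which share a peak at 14113229 of chromosome I. There 2.99% of the candidates of replicate 1 and 3.73% of those of replicate 2 were higher, a largest difference of 0.209 percentage points from the ztf-29 promoter peak. Next came Y71G12B.30 and chaf-2, for a chromatin assembly factor subunit, with a shared peak, 3.28% and 3.85% higher and a difference of 0.322. The fifth was Y65A5A.2, with 2.85% and 3.38% higher and a difference of 0.328. The conservative signals of these peaks were 72.9, 74.2 and 79.5, against 69.1 for ztf-29. None had a tRNA, snoRNA or snRNA gene within 200 bp.

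Among genes of its own name, ztf-29 was the one with a listed promoter peak in the conservative list. The annotation has 25 coding genes named ztf and a number. Of these, 11 had any conservative candidate in the promoter window, against 7334 of 19973 coding genes (36.7%), and ztf-29 was listed alone. In the full list 2 were listed, ztf-29 and ztf-9, and in each replicate none was. A single gene of 25 is too few to set beside the 1.65% of all coding genes.

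The candidate at ztf-9 was in fact stronger than that of ztf-29. Its conservative signal was 77.1 at -218 bp from the ztf-9 start, rank 954, but its IDR was 0.0311 and it was not listed there, while in the full list it was listed with an IDR of 0.00436. In replicate 1 it had a signal of 38.1 and an IDR of 0.0237, and in replicate 2 a signal of 30.8 and an IDR of 0.360. The candidate of ztf-11 followed, with 55.3 at -315 bp, rank 2356 and an IDR of 0.693. The third strongest of the others in the conservative list, ztf-15, had 25.1, rank 28999 and an IDR of 0.876. The order differed between lists. In replicate 1, ztf-7 had 24.8 at rank 2429, next below the 29.9 of ztf-29. In replicate 2 the candidate of ztf-11 was the strongest in a ztf promoter window, with 36.2 at rank 2794, below the 43.2 of ztf-29 at 1 bp outside its own. In the full list ztf-25 had 35.9 at rank 12235. The genes ztf-7 and ztf-25 were named after their values were seen. In the conservative list, for the 10 members other than ztf-29, 1.74 to 98.1% of candidates were higher, with a median of 72.9%, against 2.21% for ztf-29.

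**Figure D5:**
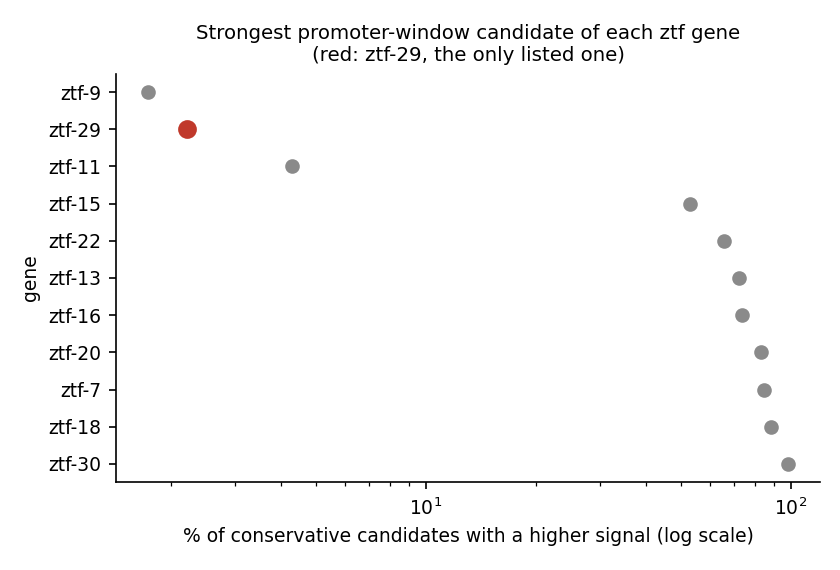
Strongest promoter-window candidate of each of the 11 ztf genes that have one. The horizontal axis is the percent of the 54900 conservative candidates with a higher signal, on a log scale, and ztf-29, the listed one, is in red. The points of ztf-9, ztf-29 and ztf-11 lie at 1.74, 2.21 and 4.29%, and the rest, led by ztf-15, lie at 52.8% or above.

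At larger distances from the start, further ztf genes had a listed peak. Within 10 kb, 5 of the 25 ztf genes (20%) had a conservative summit, against 3152 of 19973 coding genes (15.8%). They were ztf-29 and, with 1 summit each, ztf-1 at -9718 bp with a signal of 118.0, ztf-13 at 2146 bp with 96.4, ztf-11 at 7201 bp with 90.3 and ztf-14 at 8374 bp with 84.9. The upstream peak of ztf-29, at 217.5, was the strongest of these, and it was the nearest to the start of its gene after the ztf-29 promoter peak and the peak of ztf-13. No tRNA, snoRNA or snRNA gene lay within 200 bp of any of these summits. By annotation, the ztf-13 summit lay in the promoter window of another gene. The ztf-14 summit lay in a non-coding RNA gene, the ztf-1 summit in an intron and the ztf-11 summit in intergenic DNA.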

How the data were processed

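The peak lists come from 2 immunoprecipitated samples of a single group, labelled as biological replicates 1 and 2. Per the deposited readme, each replicate's alignments gave it a ranked and a thresholded list, and the alignments of the 2 replicates jointly gave the conservative and full pairs. These joint lists therefore share reads with the replicates' lists. The deposited signal of each peak has no stated scale or unit and was read only within a list. One deposited score is a transform of the IDR that ends at 1000, and the ranked lists add minus log10 of the global IDR as a further score. The summit is deposited as an offset from the peak's start. The build is ce11 per the labels. Aligner, peak caller, versions and depth are not given in the sources used, so no value could be set against depth.

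Genes were taken from Ensembl release 115 on WBcel235, which is ce11, and sequences and tRNA products from the RefSeq copy of that assembly. Chromosome lengths matched. Ranks by signal, distances from the annotated start, classes and counts over all coding genes were computed. Classes were taken in order: promoter window, the parts of coding genes, non-coding RNA genes, pseudogenes and last intergenic. A candidate was taken as the same peak in another list where they overlapped by at least 1 bp. The exact (Clopper-Pearson) interval covers counting error only and treats genes as independent. With a single group no test between conditions was possible and no p-value is given. Counting of summits, promoter hits and motifs was tested on simulated data over 19973 genes, where 200 of 200 summits, 200 of 200 promoter summits and 50 of 50 motifs were recovered. Scripts ran in Python 3.11.15; arrays and tables used numpy 2.4.6 and pandas 2.3.3, intervals scipy 1.17.1 and plots matplotlib 3.10.9.

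The named genes were ztf-29, the genes of its window, ztf genes listed in the promoter window or else the 3 with the strongest candidate there, and the 5 genes whose promoter peaks were closest to that of ztf-29 in both replicates. The ztf genes with a summit within 10 kb were named after their values were seen. The members, lists and rules were chosen with earlier results of these data known. Alternatives were other windows, IDR limits, rankings and distances, the full list and each replicate's own list. The protein sequence of ztf-29 was not used here.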

Additional observations from a re-analysis of the deposited data

How the results depend on the processing

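The number of listed peaks in the ztf-29 window was 2 with 5 or 20 kb on either side, in the full list, with overlap in place of the summit and at an IDR of at most 0.05. It was 1 at an IDR of at most 0.001 and 1 to 1 when each replicate was left out, where the other replicate's own list was used and the promoter peak was not listed. The cause was not tested. The share of listed peaks with a higher signal than the upstream peak was 6.46% in the full list. For the promoter peak it was 83.9% there, 88.5% by IDR and 95.7% with the strongest of overlapping peaks kept. Leaving out a replicate gave 0.232 to 0.522% of candidates higher for the upstream peak and 3.18 to 3.53% for the promoter peak. The upstream summit then lay at -2762 to -2745 bp and the promoter summit at -501 to -454 bp, and the upstream distance was -2760 bp from the start codon. The share of coding genes with at least as many listed peaks was 1.10% at 5 kb, 6.27% at 20 kb, 3.79% in the full list and 9.98 to 15.5% without a replicate, where ztf-29 itself had 1 peak. The count of ztf genes with a listed promoter peak was 0 with 200 bp upstream, 2 in the full list and 0 to 0 without a replicate. In the ztf-29 window, 0 RNA genes contained a listed summit, against 1 within 200 bp of one. No paired analysis was possible because the series holds a single group. The signal scale and depth are unknown and 2 samples give no test, which limits all of these values.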
